A study of Mus musculus with 6 samples.

Results

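The genes described here make, break down or sense prostaglandins. They are the cyclooxygenases Ptgs1 and Ptgs2, the prostaglandin E synthases Ptges, Ptges2 and Ptges3, the prostacyclin synthase Ptgis, the prostaglandin D synthase Ptgds, the degrading enzyme Hpgd and the prostaglandin E2 receptors Ptger2 and Ptger4. They were taken by gene symbol. Of the 10 symbols, 9 had a row among the 15634 genes listed, and all 9 were among the 15547 genes tested. Ptgds was not analysed here.

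RNA was sequenced from mesenchymal stem cells (MSCs), adherent stromal cells grown from the bone marrow of wild-type C57BL/6J mice. The TNF group held 3 libraries of MSCs given TNF-α, an inflammatory cytokine, at 10 ng/mL for 24 h. The Control group held 3 libraries of MSCs without stimulation, labelled with the same time. The labels do not say whether libraries of a group came from separate cultures or animals, so p-values measure only the spread between these libraries, which may be technical.

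Prostaglandins are short-lived lipid signals. Phospholipases free arachidonic acid from membranes, a cyclooxygenase turns it into prostaglandin H2, and a terminal synthase turns that into prostaglandin E2, D2 or F2, prostacyclin or thromboxane. Prostaglandin E2 made by MSCs is known to act on macrophages and T cells, and in bone it acts on both osteoblasts and osteoclasts. The transporter Slco2a1 carries prostaglandins into cells, where Hpgd starts their inactivation.

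Total counts lay between 45629973 and 55149746 in TNF libraries and between 54141846 and 77142418 in Control libraries. TNF library 2 stood apart in 18S ribosomal RNA, which took 19.4% of its counts and 1.11% to 3.55% in the other 5 libraries. Control library 2 stood apart in mitochondrially encoded mRNA, with 4.45% of its counts against 1.59% to 2.16% elsewhere. Stromal genes were well represented, for example Pdgfrb at 102 to 116 TPM in TNF and 112 to 121 TPM in Control libraries (TPM is an abundance scaled to transcript length). So were macrophage genes, for example Lyz2 at 1263 to 1431 TPM in TNF and 1688 to 2500 TPM in Control libraries. Both kinds of marker were thus present in every library. These examples do not stand for their lists, since other markers of both kinds differed between the groups in each direction, as counted below. In bulk RNA, fewer cells of a type and less RNA per cell cannot be told apart, and the part of macrophages in the results below was not tested.

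The promoters of 4 of the genes are shown first, because these genes form the contrasts described below. Ptgs2 and Ptges were higher with TNF-α, while their counterparts Ptgs1 and Hpgd were lower. Each run is RefSeq sequence of build GRCm38.p6, 250 bases before the annotated start and 50 bases from it. Ptgs2 is at chr1:150099781-150100080 on the + strand, Ptgs1 at chr2:36230176-36230475 on the + strand, Ptges at chr2:30903248-30903547 on the - strand and Hpgd at chr8:56294302-56294601 on the + strand. Capitals mark matches to any of 7 motifs searched on both strands.
Ptgs2: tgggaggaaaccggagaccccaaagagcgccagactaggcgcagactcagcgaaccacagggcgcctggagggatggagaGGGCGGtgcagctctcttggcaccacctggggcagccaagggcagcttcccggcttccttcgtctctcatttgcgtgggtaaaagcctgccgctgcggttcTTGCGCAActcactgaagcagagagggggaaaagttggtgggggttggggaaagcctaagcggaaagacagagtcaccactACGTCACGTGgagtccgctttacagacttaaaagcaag
Ptgs1: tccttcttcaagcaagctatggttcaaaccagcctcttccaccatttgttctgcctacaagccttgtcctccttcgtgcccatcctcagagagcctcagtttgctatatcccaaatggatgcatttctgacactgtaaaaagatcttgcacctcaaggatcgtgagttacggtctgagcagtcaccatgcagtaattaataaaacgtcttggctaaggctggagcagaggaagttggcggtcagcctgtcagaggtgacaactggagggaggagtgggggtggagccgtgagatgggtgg
Ptges: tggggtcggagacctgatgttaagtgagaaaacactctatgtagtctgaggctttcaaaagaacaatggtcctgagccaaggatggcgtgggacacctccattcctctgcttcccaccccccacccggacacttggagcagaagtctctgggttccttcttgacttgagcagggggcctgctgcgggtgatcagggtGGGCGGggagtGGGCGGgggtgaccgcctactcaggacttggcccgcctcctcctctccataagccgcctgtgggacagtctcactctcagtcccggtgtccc
Hpgd: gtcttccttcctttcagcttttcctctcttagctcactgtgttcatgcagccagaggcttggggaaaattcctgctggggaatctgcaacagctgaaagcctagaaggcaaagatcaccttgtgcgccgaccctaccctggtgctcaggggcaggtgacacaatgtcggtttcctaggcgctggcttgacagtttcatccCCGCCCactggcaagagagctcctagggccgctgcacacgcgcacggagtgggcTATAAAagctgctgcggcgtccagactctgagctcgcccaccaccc

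The motifs were a core promoter element spelled TATAAA, the Sp1-type box spelled GGGCGG (GC box below), and the half-site of the cyclic AMP response element, which is ACGTCA. Next were the basic helix-loop-helix motif spelled CACGTG, the C/EBP motif with letters TTGCNNAA, the AP-1 motif with letters TGANTCA, and the NF-kB consensus. Ptgs2 held a GC box at -170, a C/EBP match at -69 that reads on both strands, an ACGTCA at 13 and a CACGTG at 17, the last pair overlapping, with position 1 at the annotated start. Ptges held a pair of GC boxes, at -53 and -42. Hpgd held a GC box at -50 on the other strand and a TATAAA at 5. Ptgs1 held no match to any of the 7. Of all 32851 mouse promoters of this length in the table, 35.7% held a GC box, 13.6% a TATAAA, 10.8% a C/EBP match, 7.51% an ACGTCA, 7.15% a CACGTG, 7.81% an AP-1 match and 8.46% an NF-kB match. The NF-kB consensus matched in none of these 4 windows, though it did in those of Ptges3 (at -87) and Ptgds (at -22). Sequence outside the windows was not searched. A match is a description of letters, and 9 of the 10 symbols had an entry in the table.

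Setting TNF against Control shows which of these transcripts differed after stimulation. Of the 9 prostaglandin genes tested, 4 were higher (Ptgs2, Ptges, Ptger2 and Ptger4), 2 were lower (Hpgd and Ptgs1) and 3 were not called (Ptges2, Ptges3 and Ptgis). Over all tested genes 32.4% were called, 16% higher and 16.4% lower. The values of the groups did not overlap in 6 of the 9, against 48.7% of all tested genes. Of the 9, 4 were both called and at least 2-fold higher, as were 903 of all 15547 tested genes (5.81%). Those 4 were all of the higher genes, where over all tested genes it was 903 of the 2489 called higher. Hpgd alone of the 9 was both called and at least 2-fold lower, as were 812 of all 15547 (5.22%). Calls used the quasi-likelihood test of edgeR, with p-values adjusted over all genes (Benjamini-Hochberg) and a threshold of 0.05. Every adjusted p below comes from it. With library totals in place of TMM factors, 38.5% of all calls were higher, against 49.4% with TMM, and 4 prostaglandin genes were again higher and 2 lower. Without library 2 of both groups 4 were higher and 2 lower, with Ptges2 gained and Ptger2 lost. The median log2 fold change of the 9 was 0.34, and that of all tested genes -0.0046.

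**Figure D1:**
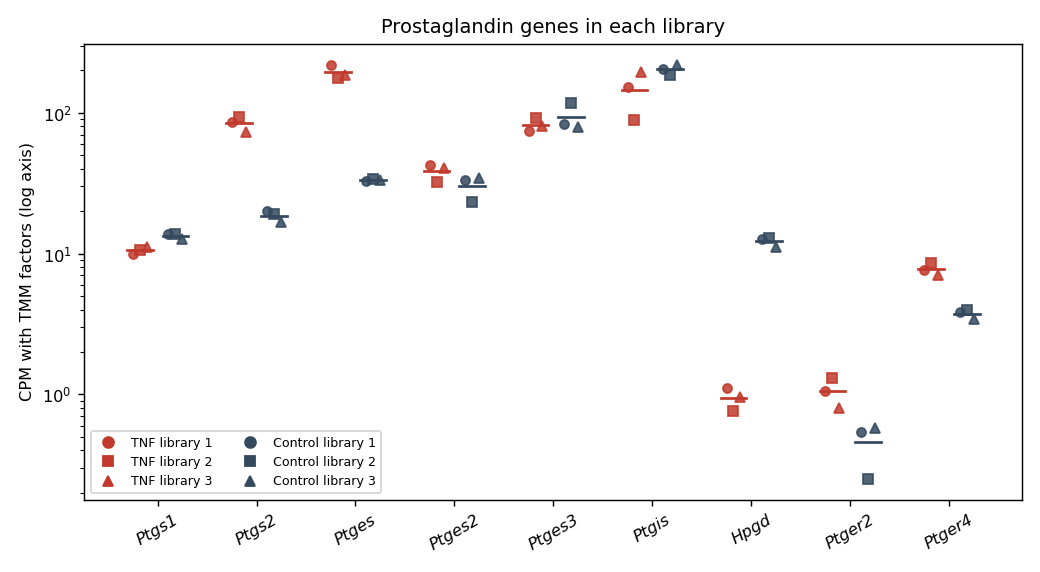
Level of each prostaglandin gene in each library, in CPM with TMM factors on a log axis. Symbols are single libraries, TNF in red and Control in dark grey, and lines are group means. Ptgs2, Ptges, Ptger2 and Ptger4 lie higher in all 3 TNF libraries and Hpgd and Ptgs1 lower, while the groups overlap in the other 3 genes.

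Ptgs2 encodes the inducible cyclooxygenase, COX-2. It had 86.3, 92.7 and 73.5 CPM (normalised read counts, scaled with TMM factors) in TNF libraries 1, 2 and 3, against 20.1, 19.0 and 16.7 CPM in Control libraries 1, 2 and 3. Every TNF library was above every Control library. The mean was 84.2 ± 9.77 CPM in TNF and 18.6 ± 1.73 CPM in Control (SD, n = 3 each), a 4.53-fold difference (log2 fold change 2.18 ± 0.11 SE, edgeR adjusted p = 2.63e-06). These values rest on 3631 to 4338 counts per TNF library and 949 to 1434 per Control library. Among the 15547 tested genes, 355 had a larger fitted rise.

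Ptgs1 encodes the constitutive cyclooxygenase, COX-1. It had 9.89, 10.6 and 11.1 CPM in TNF libraries 1, 2 and 3, against 13.7, 13.8 and 12.7 CPM in Control libraries 1, 2 and 3. The groups did not overlap, but the difference was small next to that of Ptgs2, at a log2 fold change of -0.35 ± 0.09 SE (edgeR adjusted p = 0.0165). The call was lost without TNF library 1 (adjusted p = 0.0791) and without Control library 1 (adjusted p = 0.0693), with the sign unchanged. Ptgs1 is also made by macrophages. Of 24 tested macrophage and monocyte markers 5 were higher and 11 lower, with summed levels of 2842 to 3442 TPM in TNF and 3987 to 5536 TPM in Control libraries. The 16 stromal markers also had lower sums, 4963.4 to 5737.5 TPM in TNF and 7424.5 to 8456.7 TPM in Control libraries. Col1a1 and Col1a2 were the largest terms of those stromal sums. Lyz2 was the largest term of the macrophage sums and was itself not called (edgeR adjusted p = 0.0768). The part of macrophages in the lower Ptgs1 level was not tested.

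Within a library, TPM allows both cyclooxygenases to be set on one scale. Ptgs2 made up 83.3%, 84.5% and 79.4% of cyclooxygenase TPM in TNF libraries 1, 2 and 3, against 47.4%, 43.8% and 44.7% in Control libraries 1, 2 and 3. COX-2 transcripts were thus the larger share in every TNF library and the smaller share in every Control library. The log2 ratio of Ptgs2 to Ptgs1 was 2.24 ± 0.26 in TNF and -0.27 ± 0.11 in Control (SD, n = 3 each; exact two-sided permutation p = 0.1). With 3 libraries against 3 this is the smallest p that can be had, and it was 0.133 adjusted over the 4 ratios examined. Both genes alone already separated the groups, in opposite directions, so this p was bound to result and adds no support.

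Ptges encodes the microsomal prostaglandin E synthase that is induced together with COX-2 in inflammation. It had 219, 176 and 186 CPM in TNF libraries 1, 2 and 3, against 32.9, 33.9 and 33.4 CPM in Control libraries 1, 2 and 3. The coefficient of variation of the Control libraries was 1.54%, below the median of 10.4% over all tested genes in that group. That of the TNF libraries was 11.7%, above the median of 9.46% in their group. The difference was 5.80-fold (log2 fold change 2.54 ± 0.10 SE, edgeR adjusted p = 7.58e-07). It was the largest rise of the 9 genes, and 273 tested genes had a larger one.

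Ptges2 encodes a second membrane-bound enzyme named as a prostaglandin E synthase. It had 42.7, 32.4 and 40.2 CPM in TNF libraries 1, 2 and 3, against 33.3, 23.3 and 34.4 CPM in Control libraries 1, 2 and 3. The groups overlapped, with library 2 the lowest in both. The log2 fold change was 0.34 ± 0.16 SE and did not pass (edgeR adjusted p = 0.139). Without both libraries 2 it was 0.30 with adjusted p = 0.0171.

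Ptges3 encodes the cytosolic synthase, better known as p23, a co-chaperone of HSP90. It had 73.8, 91.8 and 80.9 CPM in TNF libraries 1, 2 and 3, against 82.8, 116 and 78.8 CPM in Control libraries 1, 2 and 3. The groups overlapped (log2 fold change -0.17 ± 0.16 SE, edgeR adjusted p = 0.421), and without Control library 2, the highest, the fitted change was 0.02. The processed pseudogene Ptges3-ps had 113, 84 and 133 counts in TNF libraries 1, 2 and 3, against 139, 189 and 0 counts in Control libraries 1, 2 and 3. Its sequence resembles Ptges3, so the division of reads between both rows is uncertain.

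Across the 3 synthases, Ptges supplied 56.6%, 49.4% and 52.6% of the summed TPM in TNF libraries 1, 2 and 3, against 18.7%, 17.5% and 20.8% in Control libraries 1, 2 and 3. The log2 ratio of Ptges to Ptges2 was 1.62 ± 0.06 in TNF and -0.33 ± 0.33 in Control libraries (SD, n = 3 each; exact two-sided permutation p = 0.1, 0.133 adjusted over 4 ratios). Ptges thus had more TPM than Ptges2 in all 3 TNF libraries, by 2.99 to 3.24 times. In Control libraries that ratio lay between 0.672 and 1.04.

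**Figure D2:**
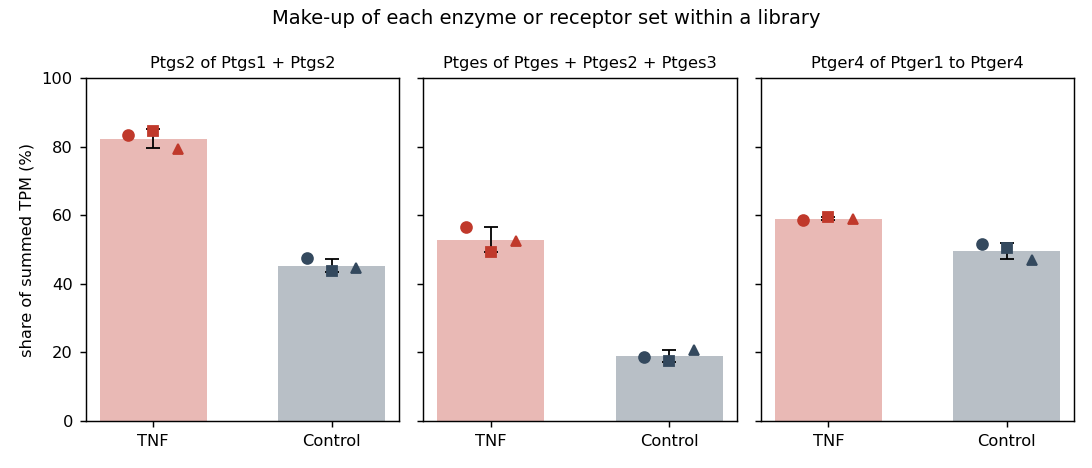
Share of one gene in the summed TPM of its set within each library, for cyclooxygenases, prostaglandin E synthases and prostaglandin E2 receptors. Bars are means, error bars SD over 3 libraries and symbols single libraries (circle 1, square 2, triangle 3). Ptgs2 makes up 79.4% to 84.5% in TNF and 43.8% to 47.4% in Control libraries.

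Ptgis makes prostacyclin, which relaxes vessels and stops platelets from clumping. It had 152, 89.2 and 195 CPM in TNF libraries 1, 2 and 3, against 204, 186 and 219 CPM in Control libraries 1, 2 and 3. The TNF libraries were far apart from each other, with a coefficient of variation of 36.7% against 8.27% in Control, and TNF library 3 lay within the Control range. The log2 fold change was -0.48 ± 0.24 SE and was not called (edgeR adjusted p = 0.159). It was -0.75 with adjusted p = 0.0351 without TNF library 3, and -0.23 with adjusted p = 0.257 without TNF library 2, the library rich in 18S reads. With the 18S share as a covariate it was -0.37 (adjusted p = 0.118).

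Hpgd encodes 15-hydroxyprostaglandin dehydrogenase, which oxidises prostaglandin E2 to an inactive form. It had 1.11, 0.766 and 0.959 CPM in TNF libraries 1, 2 and 3, against 12.8, 12.8 and 11.1 CPM in Control libraries 1, 2 and 3. The counts behind these values were 56, 30 and 55 in TNF and 760, 970 and 631 in Control libraries. Levels were 12.8-fold lower in TNF (log2 fold change -3.68 ± 0.15 SE, edgeR adjusted p = 7.58e-07), and 30 tested genes had a larger fitted fall. All fits with 1 library left out kept the call, between -3.81 and -3.56.

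Ptges and Hpgd changed in opposite directions. Ptges had 127, 138 and 122 times the TPM of Hpgd in TNF libraries 1, 2 and 3, against 1.86, 1.99 and 2.42 times in Control libraries 1, 2 and 3. The means of the log2 ratio differed by 5.95 (exact two-sided permutation p = 0.1, 0.133 adjusted over 4 ratios). Each gene alone already separated the groups, in opposite directions. The p of their ratio was therefore bound to be the smallest possible and adds no support. Such a ratio of transcripts is not a measure of prostaglandin E2, which was not measured here.

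Ptger4 encodes EP4, a prostaglandin E2 receptor that raises cyclic AMP. It had 7.60, 8.55 and 7.04 CPM in TNF libraries 1, 2 and 3, against 3.85, 3.96 and 3.44 CPM in Control libraries 1, 2 and 3. Every TNF library was above every Control library, by 2.06-fold on average (log2 fold change 1.04 ± 0.12 SE, edgeR adjusted p = 0.000217). The call was kept whichever library was left out, between 0.96 and 1.10.

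Ptger2 encodes EP2, which also raises cyclic AMP. It had 1.05, 1.30 and 0.802 CPM in TNF libraries 1, 2 and 3, against 0.538, 0.251 and 0.580 CPM in Control libraries 1, 2 and 3. These are 53, 51 and 46 counts in TNF and 32, 19 and 33 counts in Control libraries. The groups did not overlap, at a log2 fold change of 1.21 ± 0.36 SE (edgeR adjusted p = 0.0301). The call was lost without TNF library 1 (adjusted p = 0.0847), TNF library 2 (0.0927) or Control library 2 (0.0512), so at this depth it rests on single libraries. The log2 ratio of Ptger4 to Ptger2 was 3.07 ± 0.22 in TNF and 3.29 ± 0.76 in Control (SD, n = 3 each; exact two-sided permutation p = 0.9), a difference of -0.22 that became 0.22 without Control library 2.

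**Figure D3:**
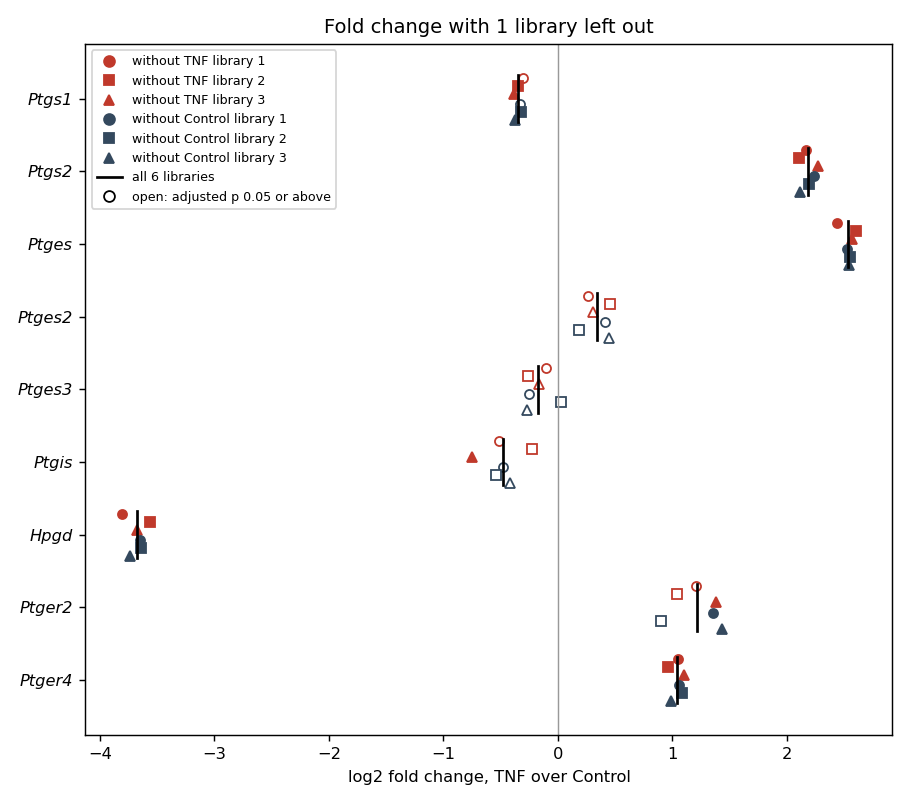
Fitted log2 fold change (TNF over Control) of each prostaglandin gene with 1 library left out at a time. The vertical line is the value with all 6 libraries, and open symbols mark fits with an adjusted p of 0.05 or above. Ptgs2, Ptges, Hpgd and Ptger4 keep filled symbols throughout, Ptgs1 and Ptger2 do not, and Ptgis is filled only without TNF library 3.

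Set in order by TPM, the genes changed places between the groups. In TNF libraries the most abundant were Ptges (103 to 160 TPM), Ptgis (67.6 to 169) and Ptges3 (69.1 to 74.4), and in that order neighbouring ranges overlapped. Next came Ptges2 (31.8 to 53.4) and Ptgs2 (28.5 to 33.9), which also overlapped. Ptgs1 (5.73 to 7.38), Ptger4 (3.76 to 4.12), Hpgd (0.746 to 1.26) and Ptger2 (0.380 to 0.538) followed with no overlap. In Control libraries Ptgis (154 to 197 TPM) led, followed by Ptges3 (75.4 to 100), then Ptges2 (25.7 to 43.0) and Ptges (26.6 to 31.0), which overlapped. Hpgd (12.8 to 15.3) came next, ahead of Ptgs1 (8.26 to 9.24) and Ptgs2 (6.69 to 8.33), whose ranges overlapped. Ptger4 (1.90 to 2.21) and Ptger2 (0.111 to 0.292) were the lowest.

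Upstream of the cyclooxygenases, 8 of 25 tested genes of phospholipase A2 and arachidonate handling were higher and 3 lower, with a median log2 fold change of 0.27. This is 44% called, against 32.4% of all tested genes, which split into 16% higher and 16.4% lower. Pla2g4a, the cytosolic phospholipase A2 that frees arachidonic acid for prostaglandin synthesis, had 121, 132 and 110 CPM in TNF libraries 1, 2 and 3, against 47.9, 44.9 and 45.1 CPM in Control libraries 1, 2 and 3 (log2 fold change 1.39 ± 0.09 SE, edgeR adjusted p = 9.13e-06). Its relative Pla2g4c averaged 0.815 ± 0.0744 CPM in TNF and 0.123 ± 0.0206 CPM in Control, and the secreted Pla2g5 averaged 3.66 ± 0.263 CPM in TNF and 1.62 ± 0.377 CPM in Control (SD, n = 3 each). Both rose, by 2.70 and 1.17 on the log2 scale. Pla2g4c rests on 41, 29 and 51 counts in TNF libraries 1, 2 and 3, against 7, 11 and 6 counts in Control libraries 1, 2 and 3. Acsl1, which activates fatty acids with coenzyme A and so is no phospholipase, rose by 1.74. With library totals as scaling 5 genes of the list were higher and 5 lower.

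Of the other prostanoid synthases and carbonyl reductases, 2 of 8 were higher, 2 lower and 4 not called (50% called, against 32.4% of all tested genes). Hpgds, the haematopoietic prostaglandin D synthase, had 4.32, 4.49 and 5.07 CPM in TNF libraries 1, 2 and 3, against 14.7, 17.1 and 13.3 CPM in Control libraries 1, 2 and 3. It was 3.25-fold lower (log2 fold change -1.70 ± 0.12 SE, edgeR adjusted p = 1.58e-05). Hpgds is known from macrophages and mast cells. The macrophage markers given above were higher in 5 and lower in 11 of 24, and the part of macrophages in the Hpgds level was not tested. Tbxas1, the thromboxane synthase and likewise a macrophage gene, averaged 12.6 ± 1.19 CPM in TNF and 11.1 ± 2.07 CPM in Control and was not called (SD, n = 3 each; edgeR adjusted p = 0.359, and 0.0458 without Control library 2).

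The remaining members of that list differed little. Akr1b8 (log2 fold change 0.31) and Cbr3 (0.30) were higher and Cbr1 (-0.29) lower. Leaving out 1 library gave 0 to 2 higher and 1 or 2 lower genes. The Akr1b8 call was lost without TNF library 1 or 3 or Control library 1 or 3 (adjusted p up to 0.0945). The Cbr3 call was kept only when Control library 3 was left out (otherwise adjusted p up to 0.134), and the Cbr1 call only when Control library 1 was (otherwise up to 0.109). Library totals ended all 3 calls (adjusted p = 0.276 for Akr1b8, 0.320 for Cbr3 and 0.0654 for Cbr1). Prxl2b (0.00), Akr1b3 (0.13) and Akr1c18 (0.51) were not called.

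For transport and inactivation, 3 of 8 tested genes were higher, 1 was lower and 4 were not called (50% called, against 32.4% of all tested genes). Slco2a1, the prostaglandin transporter, had 161, 144 and 154 CPM in TNF libraries 1, 2 and 3, against 29.2, 28.1 and 28.8 CPM in Control libraries 1, 2 and 3 (log2 fold change 2.42 ± 0.08 SE, edgeR adjusted p = 3.65e-07). Uptake carrier and degrading enzyme thus changed in opposite directions. Abcc4, a pump that can export prostaglandins, rose by 0.58 ± 0.08 SE on the log2 scale. Slco2b1, a carrier of organic anions, had 1, 0 and 1 counts in TNF libraries 1, 2 and 3, against 102, 150 and 87 counts in Control libraries 1, 2 and 3. Its Control to TNF ratio was 130 with an exact 95% counting interval of 35.6 to 1074, which covers counting error only.

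Enzymes that act after Hpgd did not pass the test. Ptgr1 averaged 56.5 ± 1.82 CPM in TNF and 52.2 ± 2.94 CPM in Control (SD, n = 3 each; edgeR adjusted p = 0.296). Ptgr2 averaged 38.8 ± 2.2 CPM in TNF and 40.8 ± 2.0 CPM in Control (SD, n = 3 each; edgeR adjusted p = 0.531). The third higher gene of this list, Hsd17b12 (0.49), is known as an enzyme of fatty acid elongation.

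**Figure D4:**
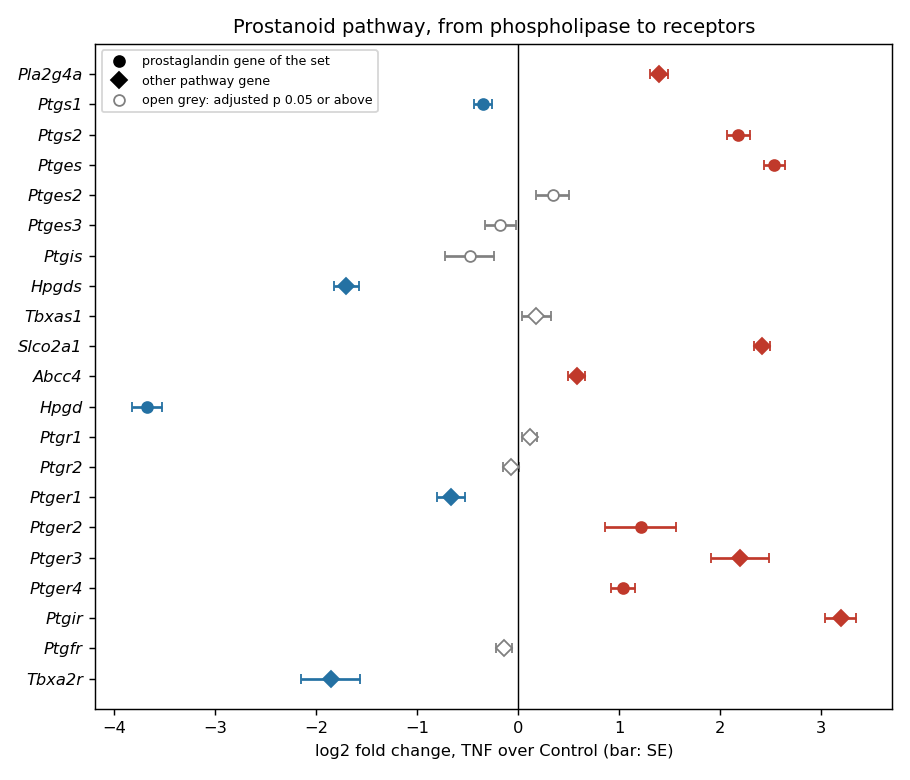
Fitted log2 fold change (TNF over Control) with its SE along the prostanoid pathway, from the phospholipase Pla2g4a at the top to receptors at the bottom. Circles are the prostaglandin genes described first, diamonds other pathway genes, filled red higher, filled blue lower and open grey not called. Ptgir (3.19) and Ptges (2.54) lie farthest to the right and Hpgd (-3.68) farthest to the left.

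Of the 6 other prostanoid receptor genes tested, the partner protein Ptgfrn included, 2 were higher, 3 lower and 1 not called (83.3% called, against 32.4% of all tested genes). Ptgir, the prostacyclin receptor, had 11.5, 10.6 and 8.33 CPM in TNF libraries 1, 2 and 3, against 1.16, 1.06 and 1.11 CPM in Control libraries 1, 2 and 3. It was 9.14-fold higher (log2 fold change 3.19 ± 0.15 SE, edgeR adjusted p = 1.65e-06), above the fitted change of each prostaglandin E2 receptor, though differences between genes were not tested. Ptger3, which encodes EP3, a receptor that lowers cyclic AMP, had 2.29, 3.29 and 2.04 CPM in TNF libraries 1, 2 and 3, against 0.370, 0.688 and 0.580 CPM in Control libraries 1, 2 and 3 (log2 fold change 2.19 ± 0.28 SE, edgeR adjusted p = 0.000477).

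Ptger1, which encodes the calcium-coupled EP1, was lower, with 2.81, 2.12 and 2.81 CPM in TNF libraries 1, 2 and 3, against 4.12, 4.21 and 3.99 CPM in Control libraries 1, 2 and 3 (log2 fold change -0.66 ± 0.14 SE, edgeR adjusted p = 0.00741). Tbxa2r, the thromboxane receptor, averaged 0.203 ± 0.0316 CPM in TNF and 0.743 ± 0.124 CPM in Control (SD, n = 3 each; log2 fold change -1.85, edgeR adjusted p = 0.00145). Ptgfr, the prostaglandin F receptor, averaged 86.8 ± 2.25 CPM in TNF and 95.8 ± 6.37 CPM in Control, and was not called (SD, n = 3 each; edgeR adjusted p = 0.208). Ptgfrn, a membrane partner of that receptor and no receptor itself, fell by 0.59 on the log2 scale, a call that was lost without TNF library 1 (adjusted p = 0.0502).

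Of the 4 prostaglandin E2 receptor genes 3 were therefore higher with TNF-α and 1 was lower. Ptger4 supplied 58.7%, 59.5% and 59.1% of their summed TPM in TNF libraries 1, 2 and 3, against 51.6%, 50.4% and 46.9% in Control libraries 1, 2 and 3. It was the most abundant of the 4 by this measure in every library of both groups.

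**Figure D5:**
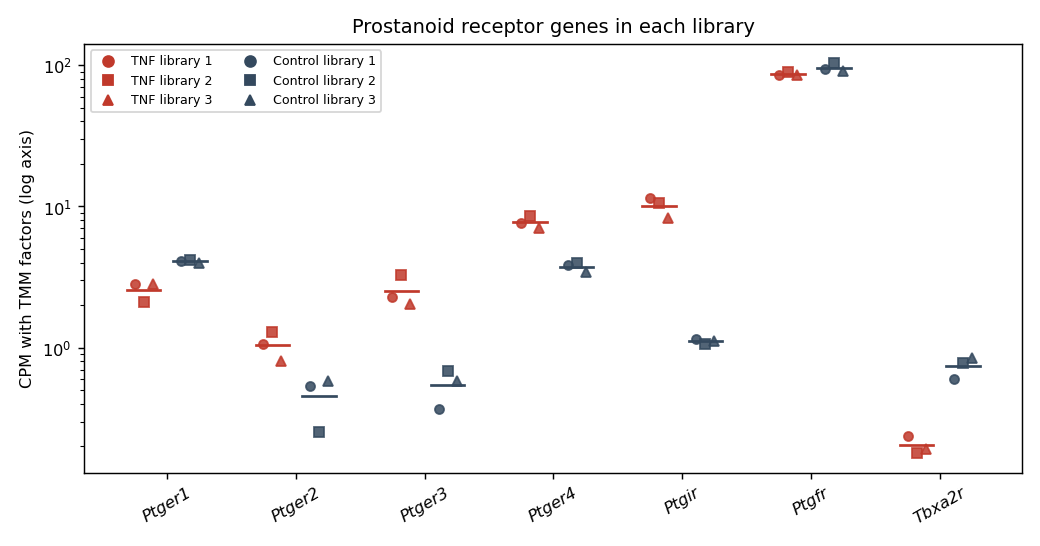
Level of prostanoid receptor genes in each library, in CPM with TMM factors on a log axis. Symbols are single libraries, TNF in red and Control in dark grey, and lines are group means. Ptgir, Ptger2, Ptger3 and Ptger4 are higher in all 3 TNF libraries, and Ptger1, Ptgfr and Tbxa2r are lower in all 3, with Ptgfr not passing the test.

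Genes of the cyclic AMP pathway of EP2 and EP4 were lower in 10 and higher in 4 of 39 tested, with a median log2 fold change of -0.22. The list holds genes that carry the signal and others that oppose or end it, such as phosphodiesterases. These counts thus give no direction of signalling. The share called, 35.9%, was near the 32.4% of all tested genes. Pde4b, a phosphodiesterase that breaks down cyclic AMP, had 49.9, 55.7 and 43.4 CPM in TNF libraries 1, 2 and 3, against 5.39, 4.22 and 4.38 CPM in Control libraries 1, 2 and 3. This was a 10.6-fold rise (log2 fold change 3.41 ± 0.14 SE, edgeR adjusted p = 7.58e-07). Pde3b, another phosphodiesterase, fell by 0.90. Prkar2b, a regulatory subunit of protein kinase A, rose by 0.77 on the log2 scale and Grk5, a receptor kinase, by 0.61. Gnas, which encodes the stimulatory G protein subunit, averaged 1697 CPM in TNF and 1768 CPM in Control and was not called (edgeR adjusted p = 0.742).

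A pair of noncoding RNAs named for the opposite strand of Ptgs2 had few counts. Ptgs2os had 95, 86 and 84 counts in TNF libraries 1, 2 and 3, against 57, 37 and 56 counts in Control libraries 1, 2 and 3. Ptgs2os2 had 31, 29 and 37 counts in TNF libraries 1, 2 and 3, against 3, 4 and 10 counts in Control libraries 1, 2 and 3. Both were higher (edgeR adjusted p = 0.0147 for Ptgs2os and 0.0015 for Ptgs2os2), Ptgs2os not without TNF library 1 (0.0529) or TNF library 2 (0.0538). The library kit keeps strand, but whether the counting used it is not given in the sources used here, so these reads cannot be told apart from those of Ptgs2.

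By correlation of log2 CPM over the 6 libraries, the genes most like Ptges were Egln3 (r = 0.9995), Tnip1 (0.9994) and Fam20c (0.9994). Those most like Hpgd were Tgfb3 (r = 0.9988), Porcn (0.9987) and Slc9a9 (0.9986). The 6 points fall into the study's 2 groups, and they share those groups and their library depths. Of 10748 genes compared, 327 reached an r of 0.99 with Ptges and 154 with Hpgd.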

How the data were processed

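The submitters' processing notes name Trim Galore, STAR, StringTie and Salmon and build GRCm39. Per the labels, libraries were made with a stranded SMART-Seq kit. The authors deposited expected counts as whole numbers without gene names; the title line calls them normalized and the column name raw, and library totals differ, so they were used as counts. The authors also deposited TPM with gene symbols. Each line of counts was given the gene on the same line of the TPM table. All 260 zeros coincided, and the log2 ratio of count to TPM varied across libraries by a median SD of 0.028, and of 0.413 after shifting the lines by 1. All 15634 listed genes had at least 10 counts in at least 3 libraries, so scarcer genes were not analysed here. Among called genes, Pla2g4c, Ptgs2os2, Fpr2 and Camp met this minimum through their TNF libraries, and Slco2b1, Tbxa2r and the endothelial marker Kdr through their Control libraries.

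The count model was that of edgeR 4.0.16 under R 4.3.3 (filterByExpr, TMM factors, glmQLFit, glmQLFTest, group as the only term, two-sided), with Benjamini-Hochberg adjustment over all tested genes. SE is the absolute log2 fold change divided by the square root of the F statistic. Ratios between genes used TPM and exact permutation tests. Correlations used log2 CPM with a prior count of 2. The procedure was tested on simulated counts, in which far fewer genes differed than were called here. That simulation did not test the scaling or whether libraries were independent.

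The genes, the 6 pathway lists and the 7 marker lists were chosen with earlier results of these data known. The text names all prostaglandin genes, up to 4 called genes per pathway list by adjusted p, every measured prostanoid synthase and receptor, and the 3 genes most correlated with the strongest rise and fall. Ptgr1, Ptgr2, Gnas, the pseudogene and the antisense genes were named after their values were seen. Of the other marker lists, stromal genes were higher in 4 and lower in 5 of 16, and neutrophil genes in 2 and 0 of 3. Endothelial genes were higher in 1 and lower in 2 of 3, with Kdr, a lower one, at 3 to 6 counts per TNF library and 16 to 18 per Control library. The adipocyte gene was higher and the lymphocyte gene not called. No mast cell marker was analysed here. Alternatives were library totals, RLE factors, DESeq2 1.42.0, TMM factors of uncalled genes alone, limma-voom and limma 3.58.1 on log2(TPM + 1) or log2(TPM + 0.1), other filters, a threshold of 0.01, the replicate block, the 18S share as covariate and leaving out libraries.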

Additional observations from a re-analysis of the deposited data

How the results depend on the processing

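Ptgs2, Ptges, Hpgd and Ptger4 kept direction and call under all 20 alternatives. Ptgs1 and Ptger2 kept direction but lost the call under 7 each, of 20 and 18. Ptges3 lay between -0.27 and 0.024 without 1 library, the last without Control library 2. Prostaglandin genes called lower numbered 2, and 1 under the replicate block, under the 3 log2 TPM settings and at a threshold of 0.01; leaving out 1 library gave 1 to 3 lower and 3 to 4 higher. The difference in log2 Ptger4/Ptger2 lay between -0.51 and 0.22 without 1 library. Over all genes, 2489 were called higher and 2550 lower. Higher calls numbered 1612 with library totals, 1477 and 1470 with log2(TPM + 1) and log2(TPM + 0.1), 1356 with TPM of at least 1 in 3 libraries, and 1587 at 0.01, where 1534 were lower. Leaving out 1 library gave 1721 to 2413 higher and 1728 to 2382 lower. Over the 6 pathway lists, 24 genes were higher and 20 lower. Higher genes numbered 15 with library totals and 14 with the TPM minimum, which gave 13 lower; without 1 library they numbered 19 to 25 higher and 16 to 20 lower. The cause of these shifts was not tested. With the replicate block, 1987 genes were higher and 1993 lower; Ptger2 (adjusted p = 0.0859) and Ptgs1 (0.0538) lost the call and Ptges2 gained it (0.0354). Between TNF and Control libraries of the same number, correlations of deviations from group means were -0.0125, -0.304 and -0.222. Between unlike numbers they lay from -0.23 to 0.356. With 3 libraries per group, these values cannot decide whether libraries of the same number were paired. Ptger2 had 19 to 53 counts per library, and the coefficient of variation of Ptgis was 36.7% among TNF libraries. The part of either in these changes of call was not tested.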

Other observations

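Beside the cyclooxygenases, arachidonic acid also feeds the lipoxygenases, which make leukotrienes and lipoxins. Of 17 tested genes of that branch 5 were higher, 1 was lower and 11 were not called. The share called, 35.3%, was near the 32.4% of all tested genes. Leaving out 1 library gave 3 to 5 higher and 1 or 2 lower. Fpr2, a receptor of formyl peptides that also binds lipoxin A4, had 7.66, 7.07 and 6.00 CPM in TNF libraries 1, 2 and 3, against 0.0840, 0.212 and 0.211 CPM in Control libraries 1, 2 and 3 (log2 fold change 5.32 ± 0.26 SE, edgeR adjusted p = 1.63e-06). Cmklr1, a receptor of the chemoattractant chemerin, rose by 1.22 and Ltc4s, the leukotriene C4 synthase, by 0.83 on the log2 scale. Mgst3, a microsomal glutathione transferase, fell by 0.91. The enzyme that starts the branch, Alox5, averaged 1.09 ± 0.367 CPM in TNF and 1.43 ± 0.104 CPM in Control and was not called (SD, n = 3 each; edgeR adjusted p = 0.277). Its partner Alox5ap averaged 40.9 ± 4.17 CPM in TNF and 38.1 ± 12.2 CPM in Control (SD, n = 3 each; edgeR adjusted p = 0.733, and 0.0216 with higher levels in TNF without Control library 2). Fpr2 is also known from neutrophils, but of 10 neutrophil markers named only 3 were analysed. Those had summed levels of 8.18 to 11.9 TPM in TNF and 2.40 to 3.23 TPM in Control libraries. S100a8 and Camp were higher, and Csf3r was not called (edgeR adjusted p = 0.767). The part of neutrophils or macrophages in the Fpr2 level was not tested.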
